A study of Mus musculus with 8 samples.

Results

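The genes described here are p53 and 9 of its target genes, chosen by symbol from a list of 10 genes of the p53 pathway. Of these, 9 had at least one probe set that carried their symbol alone, out of 12393 genes on the array that did, and together they were read by 15 probe sets. These were *Mdm2* (2 probe sets), *Ccng1* (3), *Ccng2* (2), *Btg2* (2), *Perp* (1), *Ei24* (1), *Phlda3* (1), *Trp53inp1* (2) and *Zmat3* (1). *Trp53*, which encodes p53 itself, was not analysed here. The arrays, Affymetrix mouse expression chips, carried RNA of 8 cultures, 4 with GM-CSF plus recombinant TFF2 (rTFF2) and 4 with GM-CSF alone. Both groups began as immature myeloid cells, taken from the spleen as CD11b+Gr-1+ by sorting, of the same 4 male *Tff2*-/- mice on a C57BL/6 background, 16 weeks old, which had drunk 3% DSS for 5 days, a chemical that injures the colon, and were killed 14 days later. The sorted cells of each mouse were divided between a culture with 5 nM GM-CSF and 3 μM mouse rTFF2 and a culture with 5 nM GM-CSF alone, and both were kept for 7 days. The paper's methods state the GM-CSF concentration in another unit, by mass. The values were not converted, so the 5 nM of the labels may not be the same dose. The control cultures carry the deletion of *Tff2* too, and each array describes a mixed population after 7 days in culture rather than the sorted cells.

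p53 is a transcription factor held at low levels by the ubiquitin ligase Mdm2, whose own gene it activates, and it accumulates when cells meet DNA damage, oncogene activity or other stress. Its targets stop the cell cycle, repair DNA, promote apoptosis or autophagy, or feed back on p53, and which of them respond differs between cell types. Many of these genes are also driven by other factors, so their RNA levels are not a direct reading of p53 activity. In blood cells p53 limits the growth and survival of progenitors.

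Signals are log2 values that the authors obtained with GCRMA, so a difference of 1 is a 2-fold change on the linear scale, and a signal cannot be set against that of another probe set. Differences were tested with limma over 22626 probe sets with the mouse as a block, that is, between the cultures of the same mouse, and passed where the p-value adjusted over all probe sets was under 0.05. A background level of 2.90 was taken from 38 genes of other tissues. All 9 genes lay above it in at least one group on their brightest probe set, which stood for the gene. The myeloid identity of the cultures was clear in both groups, with *Itgam*, which encodes CD11b, at 12.72 ± 0.14 with rTFF2 and 12.35 ± 0.20 with GM-CSF alone (SD, n = 4 mice each). The *Ly6g* and *Ly6c* genes behind the Gr-1 epitope were not analysed here. The B cell markers lay at background in both groups (0 of 7 above it). Above it in at least 1 group were 4 of 10 T and NK cell markers, 1 of 5 erythroid markers and 1 of 7 stromal and endothelial markers.

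Among the 9 genes, *Perp*, *Mdm2* and *Btg2* rose with rTFF2 and *Zmat3* fell, while *Ccng1*, *Ccng2*, *Ei24*, *Phlda3* and *Trp53inp1* did not pass. Of all 12393 genes 27.7% passed, 14.5% higher and 13.3% lower, and of the 8082 genes above background 40.0% passed, so 4 of 9 is close to the share among expressed genes. Of the 15 probe sets 5 passed, 4 higher and 1 lower, against 25.7% of all probe sets, 13.7% higher and 12.0% lower. The values of the groups did not overlap for 4 of the 15, 3 higher and 1 lower, against 25.5% of all probe sets. All 4 mice changed in the same direction for 6 of the 15, against 45.0% of all probe sets. Without the pairing by mouse 4 of the 15 passed, against 21.8% of all probe sets. The median log2 fold change was -0.05 over the 9 genes and -0.03 over all genes. In bulk RNA, fewer cells of a type and less RNA per cell cannot be told apart.

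**Figure D1:**
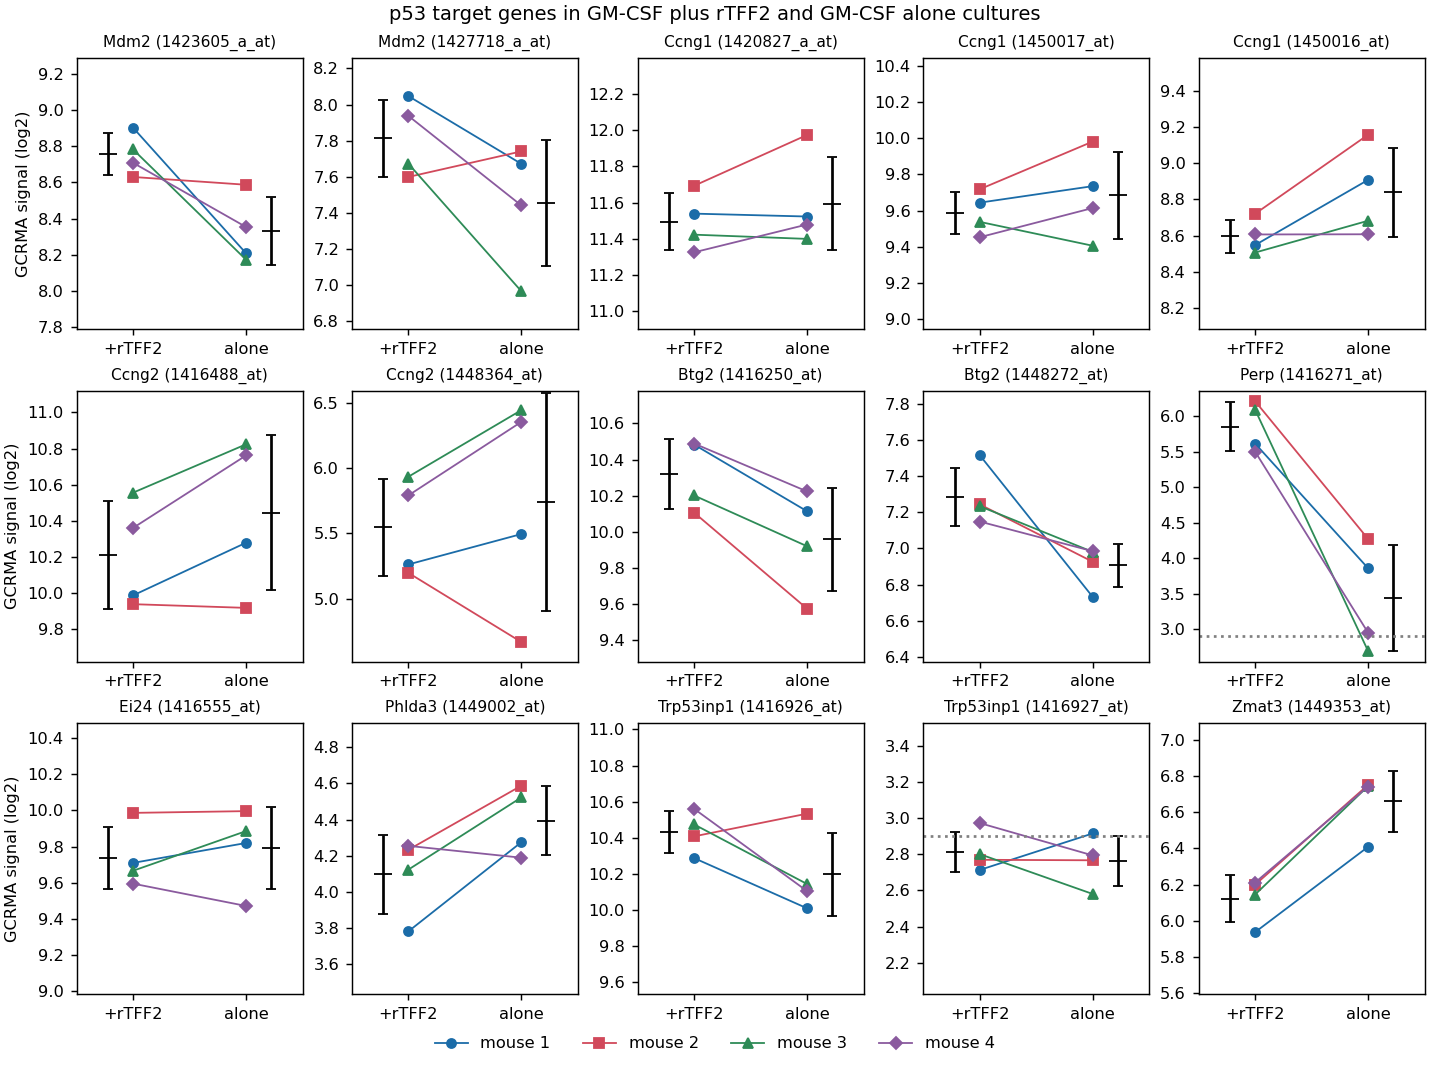
GCRMA signal (log2, vertical axes of each panel) of the 15 probe sets in the cultures with GM-CSF plus rTFF2 (left) and GM-CSF alone (right), where each line links both cultures of a mouse, the bars give the mean with its SD over n = 4 mice, and dots mark the background, 2.90, in panels that reach it. *Perp* lies between 5.50 and 6.21 with rTFF2 and between 2.69 and 4.27 with GM-CSF alone, and the lines of *Zmat3* run almost parallel.

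The promoter sequences of 3 of these genes are shown because the window with the closest match to a whole p53 site, that of *Ccng1*, belongs to a gene that did not pass, while *Mdm2* and *Btg2* passed. They are RefSeq windows of build GRCm38.p6, from 250 bases before to 50 bases after an annotated start, and 6 of the 9 genes had one. The motif searched was the p53 half-site consensus, which reads the same on both strands. Capitals mark 2 adjacent half-sites with at most 1 mismatch in *Ccng1*, 195 bases before the start, and 1 half-site without mismatch in *Mdm2*, 186 bases before the start. The *Btg2* window has neither and is all in lower case. *Mdm2* (chr10:117710709-117711008, minus strand) and *Btg2* (chr1:134079106-134079405, minus strand) rose, and *Ccng1* (chr11:40755237-40755536, minus strand) did not pass.
Mdm2: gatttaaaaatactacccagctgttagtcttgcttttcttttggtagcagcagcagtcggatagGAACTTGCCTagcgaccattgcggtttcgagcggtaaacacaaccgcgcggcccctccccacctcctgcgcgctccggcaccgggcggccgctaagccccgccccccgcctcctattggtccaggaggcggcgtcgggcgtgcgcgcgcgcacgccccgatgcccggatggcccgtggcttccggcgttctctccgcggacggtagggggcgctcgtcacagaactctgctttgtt
Ccng1: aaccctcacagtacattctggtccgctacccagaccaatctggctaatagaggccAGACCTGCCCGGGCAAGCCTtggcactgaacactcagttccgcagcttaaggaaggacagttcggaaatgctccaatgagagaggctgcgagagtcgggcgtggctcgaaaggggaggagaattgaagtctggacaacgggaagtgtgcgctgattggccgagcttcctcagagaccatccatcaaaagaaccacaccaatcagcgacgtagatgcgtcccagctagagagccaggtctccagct
Btg2: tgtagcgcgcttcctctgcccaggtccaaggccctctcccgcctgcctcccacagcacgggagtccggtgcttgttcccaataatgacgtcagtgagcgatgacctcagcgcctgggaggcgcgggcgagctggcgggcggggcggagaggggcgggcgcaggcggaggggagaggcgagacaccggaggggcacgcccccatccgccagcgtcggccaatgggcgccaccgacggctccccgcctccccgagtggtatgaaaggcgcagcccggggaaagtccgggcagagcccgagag
Of all 32851 promoter windows, 8.36% held a half-site without mismatch and 0.0883%, or 29, held the adjacent pair. *Ei24* also had a half-site, starting 10 bases before its start, and *Ccng2* and *Phlda3* had none. A match of letters is a description of the window, and p53 sites further away, such as the well-known ones inside *Mdm2*, lie outside it.

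The 29 windows with the adjacent pair belong to 29 genes, a set picked by sequence alone, of which 10 were measured. None of the 10 rose and 4 fell, with a median log2 fold change of -0.22. These 4 are 40.0% of the set, against 27.7% of all genes and 40.0% of those above background. Those that fell were *Clec4b1* (-1.96, standard error 0.33, adjusted p = 0.0056 from limma), a C-type lectin gene, the folate enzyme gene *Mthfd1* (-0.64), *Rps27l* (-0.30) and *Bco1* (-0.24), which was at background in both groups. The p53 targets *Cdkn1a*, *Ccng1* and *Gtse1* were in this set too and did not pass (-0.01, -0.10 and -0.19). For the half-site alone, 136 of 850 measured genes rose and 101 fell, 27.9% in all, and their median was -0.02.

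*Perp* encodes a membrane protein of desmosomes that is needed for p53-dependent apoptosis in some cell types. Its signals were 5.61, 6.21, 6.09 and 5.50 in the rTFF2 cultures of mice 1 to 4, against 3.86, 4.27, 2.69 and 2.95 with GM-CSF alone. The groups were far apart. With GM-CSF alone mouse 3 lay under the background level and mouse 4 just above it, while with rTFF2 the signal was above it in 4 of 4 mice. The mean was 5.85 ± 0.35 with rTFF2 and 3.44 ± 0.75 with GM-CSF alone (SD, n = 4 mice each), a 5.33-fold rise (log2 fold change 2.41, standard error 0.25, adjusted p = 9.3e-04 from limma). The rise was 1.76 and 1.94 in mice 1 and 2 and 3.40 and 2.55 in mice 3 and 4, and was thus larger in the mice with the lower control signal, which is itself a term of the difference. This was the only one of the 15 probe sets that passed under all 12 alternatives of the processing. When 32 was added to every linear signal before log2, so that dim probe sets differ less, the log2 fold change was 1.05.

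*Mdm2* encodes the ubiquitin ligase that marks p53 for degradation. On its brighter probe set the signals were 8.90, 8.63, 8.78 and 8.71 with rTFF2 in mice 1 to 4, against 8.21, 8.59, 8.17 and 8.35 with GM-CSF alone. The lowest rTFF2 culture stood only just over the highest control culture, and both came from mouse 2, in which *Mdm2* hardly differed between the cultures. The rise was 1.34-fold (log2 fold change 0.43, standard error 0.11, adjusted p = 0.034 from limma). The dimmer probe set gave 8.05, 7.60, 7.67 and 7.94 with rTFF2, against 7.67, 7.74, 6.97 and 7.44 with GM-CSF alone, and there the groups overlapped. Its log2 fold change of 0.36 did not pass (adjusted p = 0.095), but without mouse 2 it was 0.53 (adjusted p = 0.011). Without mouse 1, 3 or 4 this dimmer probe set did not pass either (limma's adjusted p = 0.22, 0.29 and 0.25). The call on the brighter probe set was lost without mouse 1, 3 or 4 (adjusted p = 0.13, 0.13 and 0.085), with median centring (0.053) and with the offset (0.099).

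*Btg2* encodes an antiproliferative protein that recruits the deadenylation machinery to mRNAs. Its brighter probe set stood at 10.48, 10.11, 10.20 and 10.49 with rTFF2, against 10.11, 9.57, 9.92 and 10.22 with GM-CSF alone. The groups overlapped, with mice 1 and 4 high and mouse 2 low in both, yet within each mouse the rTFF2 culture was higher, by 0.37, 0.53, 0.28 and 0.27. The log2 fold change was 0.36 (standard error 0.08, adjusted p = 0.013 from limma) with the pairing, and the adjusted p was 0.12 without it. The second probe set gave 7.52, 7.24, 7.23 and 7.15 with rTFF2, against 6.73, 6.93, 6.98 and 6.98 with GM-CSF alone. Here the groups did not overlap, and mouse 1 had both the highest rTFF2 and the lowest control signal. Its log2 fold change was 0.38 (standard error 0.11, adjusted p = 0.044). This call was near the threshold, and leaving out any one of the 4 mice ended it (adjusted p from 0.059 to 0.11), as did the removal of mouse 1 for the brighter probe set (0.054). For the second probe set the call was also lost with quantile normalization again, median centring and the offset (0.082, 0.072 and 0.11).

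*Zmat3* encodes a zinc finger protein that binds RNA and affects the stability and splicing of transcripts. It stood at 5.94, 6.20, 6.14 and 6.21 with rTFF2, against 6.41, 6.75, 6.74 and 6.74 with GM-CSF alone. The groups did not overlap, and mouse 1 was the lowest of its group in both. *Zmat3* fell by 0.54 on the log2 scale, a 1.45-fold decrease (standard error 0.07, adjusted p = 0.0017 from limma). The fall was close to equal in the 4 mice, at -0.47, -0.55, -0.60 and -0.53. Among the 15 probe sets *Zmat3* had the smallest share of variation left after treatment and mouse, 0.59%.

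**Figure D2:**
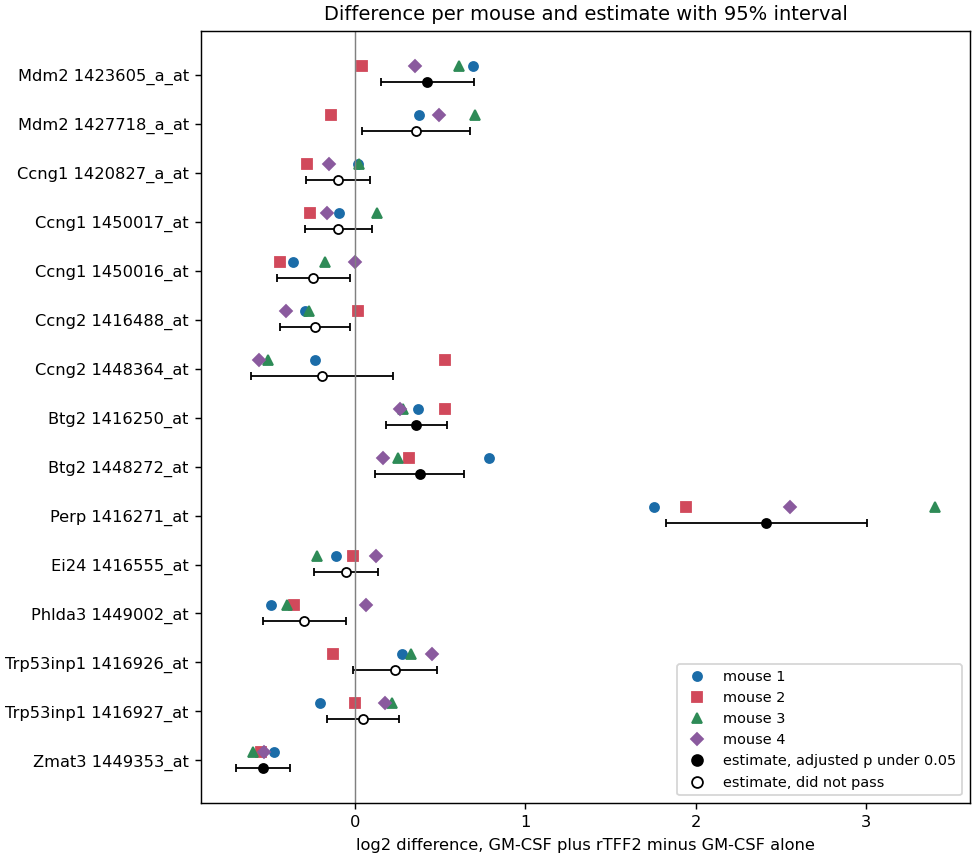
Log2 difference (horizontal axis, the rTFF2 culture minus the culture with GM-CSF alone) for the 15 probe sets (rows), with coloured symbols for the 4 mice and, under them, the limma estimate with its 95% interval, filled where the adjusted p was under 0.05. *Perp* stands apart at 2.41, and the symbols of *Zmat3* lie within -0.60 and -0.47.

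The atypical cyclins did not pass. *Ccng1* encodes cyclin G1, which brings a phosphatase to Mdm2, and *Ccng2* encodes cyclin G2, which slows the cell cycle. For *Ccng1* the log2 fold changes of the 3 probe sets were -0.10, -0.10 and -0.24, with 95% intervals of -0.29 to 0.09, -0.29 to 0.10 and -0.46 to -0.03 before adjustment (adjusted p = 0.42, 0.45 and 0.093). The dimmest of the 3 passed after median centring (0.045). Its brightest probe set stood at 11.54, 11.69, 11.42 and 11.32 with rTFF2, against 11.52, 11.97, 11.40 and 11.48 with GM-CSF alone. Mouse 2 was the highest in both groups on all 3 probe sets.

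*Ccng2* varied more between mice than between treatments. The brighter probe set gave 9.99, 9.94, 10.56 and 10.36 with rTFF2, against 10.28, 9.92, 10.82 and 10.76 with GM-CSF alone. Mice 3 and 4 were high and mouse 2 low in both groups. The difference between mice held 82.8% of the sum of squares and the treatment 11.9%. The second probe set had the same order of mice in the control cultures, from 4.67 in mouse 2 to 6.44 in mouse 3. The log2 fold changes were -0.23 and -0.19 (adjusted p = 0.093 and 0.47). Mouse 2 went against the others, by 0.02 and 0.53, and without it both probe sets passed at -0.32 and -0.43 (adjusted p = 0.037 and 0.024). Neither passed without mouse 1, 3 or 4 (limma's adjusted p from 0.22 to 0.27 for the brighter and from 0.64 to 0.84 for the second).

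The remaining genes belong to apoptosis, autophagy and survival signalling. *Phlda3* encodes a PH-domain protein that inhibits Akt. It stood at 3.78, 4.23, 4.12 and 4.25 with rTFF2, against 4.27, 4.59, 4.52 and 4.19 with GM-CSF alone. It was lower with rTFF2 in mice 1 to 3 and not in mouse 4, with a log2 fold change of -0.30 (95% interval -0.54 to -0.05, adjusted p = 0.078). It passed without mouse 4 (-0.42, adjusted p = 0.022), after quantile normalization again (0.038) and after median centring (0.037). Without mouse 1, 2 or 3 it did not pass (limma's adjusted p from 0.18 to 0.25). *Trp53inp1*, which encodes a stress-induced protein of autophagy and apoptosis, was at 10.29, 10.41, 10.47 and 10.56 with rTFF2, against 10.01, 10.53, 10.14 and 10.11 with GM-CSF alone. Mouse 2 again went against the others, and the log2 fold change was 0.23 (95% interval -0.01 to 0.48, adjusted p = 0.15), or 0.35 without mouse 2 (adjusted p = 0.029). This probe set did not pass without mouse 1, 3 or 4 (limma's adjusted p from 0.32 to 0.40). The dimmer probe set did not exceed background in either group, at 2.81 ± 0.11 with rTFF2 and 2.76 ± 0.14 with GM-CSF alone (SD, n = 4). *Ei24*, a gene for an endoplasmic reticulum protein of autophagy, had the smallest difference among the 9 genes on their brightest probe sets, at 9.74 ± 0.17 with rTFF2 and 9.79 ± 0.23 with GM-CSF alone (log2 fold change -0.05, 95% interval -0.24 to 0.13, adjusted p = 0.67).

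For 9 of the 15 probe sets the mouse held a larger share of the sum of squares than the treatment did. The mouse's share was highest for *Ei24* (84.7%), *Ccng2* (82.8% and 82.2%) and *Ccng1* (82.5% and 74.0% on its brighter probe sets), and the treatment's for *Perp* (85.1%) and *Zmat3* (81.2%). The median share of the mouse was 40.5% over the 15 probe sets and 31.3% over the 14310 probe sets above background. Mouse 2 was the highest of both groups for *Ccng1*, *Ei24* and *Perp*, and the lowest of both for *Ccng2* and the brighter *Btg2* probe set.

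**Figure D3:**
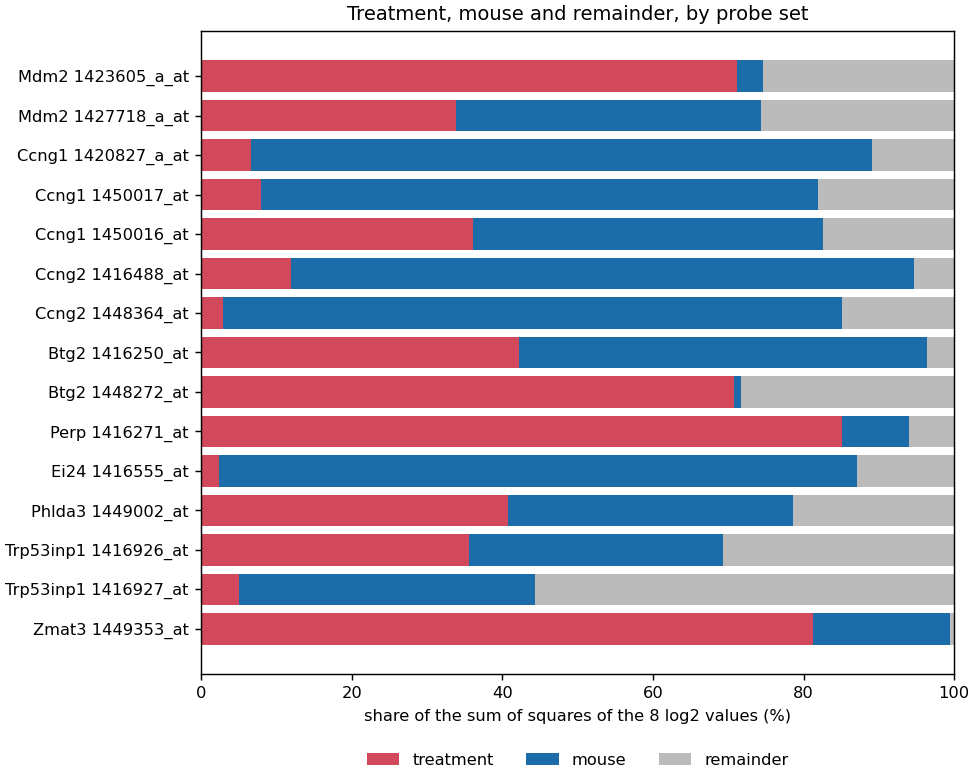
Share of the sum of squares over the 8 arrays (horizontal axis, percent) that lay between treatments, between mice and in the remainder, for each of the 15 probe sets (rows). The treatment's share is widest for *Perp* (85.1%) and *Zmat3* (81.2%), and the mouse's for *Ei24* (84.7%) and *Ccng2* (82.8% and 82.2%).

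Other gene groups moved on the same arrays. For scale, 14.5% of all genes were higher and 13.3% lower, and 40.0% of those above background passed. The neutrophil markers were higher in 15 of 15 genes, with a summed signal (log2) of 16.53 to 16.75 with rTFF2 and 15.24 to 16.15 with GM-CSF alone. Basophil and mast cell markers were higher in 8 of 12 (12.06 to 12.94 with rTFF2, 7.76 to 9.03 with GM-CSF alone), and the other 4, *Mcpt4*, *Cma1*, *Tpsb2* and *Tpsab1*, lay at background in both groups. Eosinophil markers were higher in 3 and lower in 1 of 6 (12.11 to 13.41 with rTFF2, 9.66 to 11.69 with GM-CSF alone), and macrophage markers were higher in 5 and lower in 3 of 11 (14.36 to 14.55 with rTFF2, 13.99 to 14.36 with GM-CSF alone). Dendritic cell and MHC class II genes were lower in 13 of 14 (13.13 to 13.70 with rTFF2, 14.93 to 15.30 with GM-CSF alone), and genes of cycling cells were lower in 10 of 11 (13.53 to 13.94 with rTFF2, 14.19 to 14.24 with GM-CSF alone). The 3′ minus 5′ difference of the *Actb* control probe sets, a sign of RNA quality, was 0.70 ± 0.05 with rTFF2 and 0.53 ± 0.09 with GM-CSF alone (SD, n = 4). An exact two-sided permutation test gave p = 0.125 with the pairing by mouse, the smallest that 4 pairs allow, and p = 0.029 over the 70 divisions that ignore it, again the smallest. The same difference of the *Gapdh* control probe sets was 0.26 ± 0.04 with rTFF2 and 0.22 ± 0.07 with GM-CSF alone (SD, n = 4; exact permutation p = 0.375 with the pairing and 0.40 without). With the *Actb* difference as a covariate *Perp* rose by 3.13 (adjusted p = 0.014), while *Zmat3* (-0.54, adjusted p = 0.088), *Mdm2* (0.74, 0.10) and both probe sets of *Btg2* (0.17 and 0.29, 0.57 and 0.56) no longer passed. The dimmer probe sets of *Mdm2* (higher) and *Ccng2* (lower) passed with it (adjusted p = 0.032 and 0.015). The part of the cell type markers in the changes of the p53 targets was not tested.

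The genes whose signals followed *Perp* most closely over the 8 arrays, among 8081 other genes above background, were *Nin* (Pearson r = 0.990), *Iqgap2* (0.990), *Cxcr2* (0.988), *Tlr2* (0.986) and *Akr1c13* (0.986). These correlations describe 8 arrays from 4 mice that also share the treatment, which separates the groups for each of the 5 genes. *Cxcr2*, a chemokine receptor gene on the neutrophil list, was at 6.25, 6.75, 6.96 and 6.63 with rTFF2, against 4.30, 5.05, 3.62 and 3.67 with GM-CSF alone. As with *Perp*, mouse 2 had the highest control culture and mice 3 and 4 the lowest. The rise of *Cxcr2* was 2.49 on the log2 scale, and that of *Tlr2*, a receptor for bacterial lipoproteins, was 0.89.

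A wider list of p53 targets went both ways. Of 41 genes 34 were measured, of which 9 rose, 9 fell and 16 did not pass, with a median log2 fold change of -0.0020, against -0.03 over all genes. Of all genes 27.7% passed, and 40.0% of those above background. Those that rose included *Gadd45a* (log2 fold change 1.41), a gene of growth arrest and DNA repair, the repair gene *Xpc* (1.14), *Dram1* (0.95), whose product drives autophagy, and the lysosomal protease gene *Ctsd* (0.65). The death receptor gene *Fas* rose by 1.46 and *Apaf1*, the core of the apoptosome, by 0.32, and *Prkab1*, a subunit of AMP-activated kinase, rose by 0.72. A dimmer probe set of *Prkab1* did not pass (0.15, adjusted p = 0.14 from limma). *Gadd45a* stood at 9.33, 8.81, 9.20 and 9.24 with rTFF2, against 7.52, 7.91, 7.67 and 7.86 with GM-CSF alone, with no overlap (standard error 0.14, adjusted p = 8.2e-04 from limma). *Ddit4*, an inhibitor of mTORC1 that also responds to hypoxia and glucocorticoids, rose by 1.60 (standard error 0.33, adjusted p = 0.013). It stood at 9.70, 9.19, 9.82 and 9.49 with rTFF2, against 7.27, 6.80, 8.63 and 9.11 with GM-CSF alone, so most of its rise lay in mice 1 and 2, and it was 0.32 with the *Actb* covariate (adjusted p = 0.75).

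Those that fell included the BH3-only death genes *Pmaip1* (-1.18), which encodes Noxa, and *Bbc3* (-0.42), which encodes Puma. *Pmaip1* was at 9.74, 9.48, 9.66 and 9.73 with rTFF2, against 10.79, 10.46, 10.91 and 11.16 with GM-CSF alone. The groups were well apart (standard error 0.09, adjusted p = 3.9e-04 from limma), in the direction opposite to that of *Fas* and *Perp*. *Bbc3* was dim, at 3.18 ± 0.12 with rTFF2 and 3.61 ± 0.12 with GM-CSF alone (SD, n = 4). The stress kinase gene *Plk2* (-0.57), *Sesn2* (-0.57), whose product restrains mTORC1, *Ckap2* (-0.83), a gene of the mitotic spindle, *Pmm1* (-0.52), *Epha2* (-0.37) and *Rps27l* (-0.30) fell too. *Epha2* was near background, at 2.97 ± 0.18 with rTFF2 and 3.34 ± 0.10 with GM-CSF alone (SD, n = 4). *Ak1* (-0.34) also fell, at background in both groups.

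*Cdkn1a*, which encodes the cell-cycle inhibitor p21 and is the best-known target, did not pass on its brightest probe set, at 11.08 ± 0.12 with rTFF2 and 11.09 ± 0.18 with GM-CSF alone (SD, n = 4 mice each). The 95% interval of its log2 fold change was -0.18 to 0.15 (adjusted p = 0.91). A second probe set of *Cdkn1a* was lower by 0.25 on the log2 scale and passed (adjusted p = 0.043). The difference between its probe sets was not tested. *Bax* was not analysed here.

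**Figure D4:**
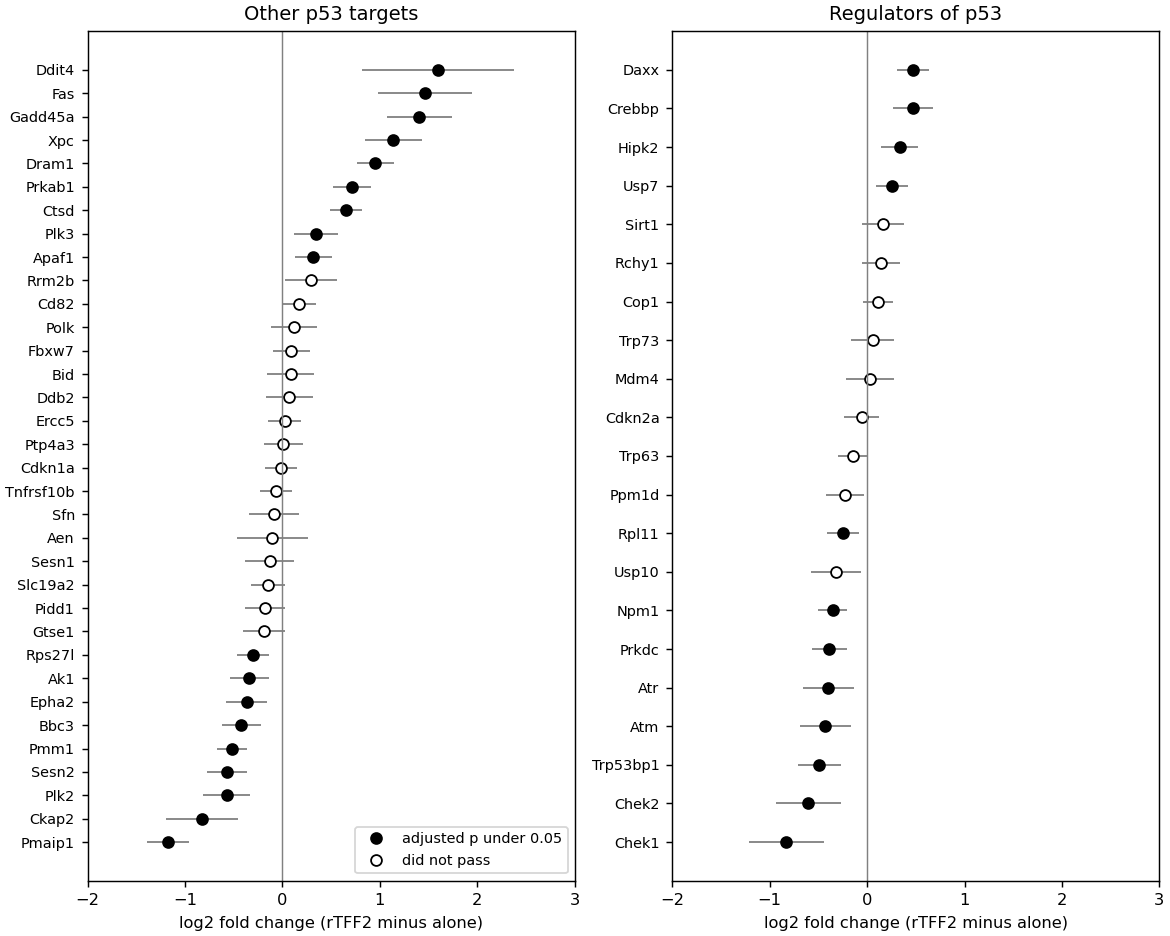
Log2 fold change (horizontal axis, GM-CSF plus rTFF2 over GM-CSF alone) of each measured gene (rows) among 34 other p53 targets and 21 p53 regulators. Bars give the 95% interval, and symbols are filled where the adjusted p was under 0.05. The medians are -0.0020 for the other targets and -0.15 for the regulators, and each list has genes on both sides of 0.

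Of 28 genes that act on p53, 21 were measured, of which 4 rose, 8 fell and 9 did not pass, with a median log2 fold change of -0.15. At background in both groups were 3 of the 21, and the gene at the median was among them. Of all genes 27.7% passed, 14.5% higher and 13.3% lower, and 40.0% of those above background. Those that fell were the checkpoint kinases *Chek1* (-0.83) and *Chek2* (-0.60), the kinases *Atm* (-0.43), *Atr* (-0.40) and *Prkdc* (-0.39) of the DNA damage response, *Trp53bp1* (-0.49), which encodes a protein of double-strand breaks, and *Npm1* (-0.35) and the ribosomal protein gene *Rpl11* (-0.24), whose products bind Mdm2. Damage kinases were on the list by choice. Genes of cycling cells were lower too, 10 of 11, and a link between them and these falls was not tested. *Chek1* was at 4.36, 5.20, 4.33 and 4.66 with rTFF2, against 5.64, 6.16, 5.23 and 4.84 with GM-CSF alone. The groups overlapped, and the difference in mouse 4 was the smallest (standard error 0.16, adjusted p = 0.011 from limma). Those that rose were *Daxx* (0.47), *Crebbp* (0.47), which encodes an acetyltransferase of p53, the p53 kinase gene *Hipk2* (0.33 on its brightest probe set, while 1 of its 4 other probe sets passed, at 0.70) and *Usp7* (0.26), whose product removes ubiquitin from Mdm2 and p53. The dimmer probe sets of *Usp7* (-0.03, adjusted p = 0.81 from limma) and *Trp53bp1* (-0.18, adjusted p = 0.090) did not pass. *Mdm4*, the partner of Mdm2, had a log2 fold change of 0.03 (95% interval -0.22 to 0.28, adjusted p = 0.87), and *Ppm1d*, whose product dephosphorylates p53, one of -0.22 (adjusted p = 0.093). Without the pairing by mouse 3 of the regulators rose and 5 fell.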

How the data were processed

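RNA of 8 cultures, 4 with GM-CSF plus rTFF2 and 4 with GM-CSF alone, was read on Affymetrix arrays. The authors deposited log2 signals from GCRMA (2.30.0, with affy 1.36.0, per the submitters' processing notes), which subtracts a background fitted to probe sequence, normalizes across arrays and summarises 1 value per probe set. GCRMA can compress low signals. Array medians ran from 4.10 to 4.21. Precision is limited by there being 8 arrays. Raw intensities were not used here.

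Of 22690 probe sets, 64 controls were left out and 22626 tested. By GEO's platform annotation 20380 carried 1 gene symbol, 691 several and 1555 none, and only those with 1 symbol named a gene, represented by its brightest probe set. Of the symbols 0 needed updating, and 29 gene IDs were not found in RefSeq. limma 3.58.1 (R 4.3.3) was fitted with treatment and mouse, and p-values were adjusted by Benjamini-Hochberg over all probe sets, with 0.05 as threshold. The methods name limma but state no block. The labels number the same animals in both groups, and the methods say that each animal's cells were divided. Deviations from the group means correlated by 0.05, 0.53, 0.30 and 0.38 within mice 1 to 4, and by -0.53 to 0.33 between different mice. The fit was tested on simulated data. Genes of other tissues (38) set the background level, at their percentile 95. Promoters were read from RefSeq (GRCm38.p6) and searched with Python.

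The genes and lists were chosen with earlier results of these data known. Named genes were all probe sets of the p53 genes and, among the other targets and the regulators, up to 8 called genes of each direction with the smallest p. *Cdkn1a*, *Bax*, *Bbc3*, *Fas*, *Atm*, *Mdm4* and *Ppm1d* were to be named whatever their result. The relatives with the smallest p and the 5 genes most like *Perp* were named too. Genes in the promoter set, *Ak1*, *Chek1* per mouse and the cell markers were named after their values were seen. *Btg1* and *Plk3* were named outside these rules. Alternatives were no block, a filter on dim probe sets, quantile normalization again, median centring, an offset of 32, a trended and robust prior, array weights, the mean over a gene's probe sets, leaving out each mouse, and the *Actb* 3′ to 5′ difference as a covariate.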

Additional observations from a re-analysis of the deposited data

Results flagged for a closer look

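In the cultures with GM-CSF alone, *Zmat3* had 1 value that stood away from the other 3. Mouse 1 was at 6.41 and the nearest other mouse at 6.74, and this gap made up 0.974 of the range of the group, over Dixon's limit for 4 samples. Of 30 groups of values tested this was the 1 that passed, and chance passes about 1 in 20. Mouse 1 was also the lowest for *Zmat3* with rTFF2, at 5.94, and without mouse 1 the log2 fold change of *Zmat3* was -0.56, against -0.54 with it.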

How the results depend on the processing

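Over the alternatives, the 15 probe sets of the p53 genes gave 146 values with the same direction and call, 18 that lost the call, 10 that gained one and 5 that changed sign. With the *Actb* covariate the log2 fold changes of *Ccng1* were 0.050, 0.070 and 0.033 and that of *Ppm1d* 0.029. With each mouse left out in turn, *Ei24* ran from -0.11 to 0.0012, the dim *Trp53inp1* probe set from -0.0068 to 0.13 and *Cdkn1a* from -0.047 to 0.019, each with the changed sign without mouse 3, and *Mdm4* from -0.081 to 0.10, with the changed sign without mouse 1. *Mdm4* was at -0.011 after quantile normalization and -0.018 after median centring. None of these passed with the main settings.

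Over all probe sets 3095 were higher and 2716 lower, against 829 and 759 with the *Actb* covariate, and 2016 to 2708 higher and 1593 to 2298 lower when each mouse was left out. Median centring moved the share of higher calls to 42.3%, against 53.3%, and the median of all probe sets to -0.07, against -0.02. Of the p53 probe sets 2 were higher after median centring, 2 with the offset and 2 with the covariate, and 1 to 5 without each mouse. Lower were 2 after quantile normalization, 3 after median centring and 1 to 3 without each mouse. Of the p53 genes 1 was higher with the covariate and 1 to 4 without each mouse, and 2 were lower after quantile normalization, 2 after centring, 0 with the covariate and 1 to 2 without each mouse. Among the other p53 targets 4 rose and 2 fell with the covariate, and 7 to 8 rose and 5 to 8 fell without each mouse. Among the regulators 1 rose and 0 fell with the covariate, 2 to 3 rose and 3 to 6 fell without each mouse, and 4 fell with the offset. The fit without the pairing by mouse called 4927 probe sets, and 5 regulators fell, against 8. Of the genes on the p53 lists it ended the calls of *Btg2* (brighter probe set), *Atr*, *Chek1*, *Hipk2*, *Rpl11*, *Plk3*, *Pmm1* and *Phlda2* and no other on their brightest probe sets. The cause of these shifts was not tested.

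The covariate differs between the treatments, so it can take up part of the treatment's own difference. With 4 mice, small changes such as those of *Mdm2* and *Btg2* lie near the threshold. The cultures are of 4 animals in 1 experiment, and the arrays give no absolute amounts.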

Other observations

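Relatives of the p53 targets were read on the same arrays. Of 13 such genes 10 were measured, of which 1 rose, 2 fell and 7 did not pass, with a median log2 fold change of -0.02. This is near the 27.7% of all genes that passed. *Trp53inp2*, the paralog of *Trp53inp1*, whose product takes part in autophagosome formation, stood at 7.40, 7.92, 7.47 and 7.42 with rTFF2, against 6.07, 6.86, 6.38 and 6.11 with GM-CSF alone. The groups did not overlap, with a log2 fold change of 1.20 (standard error 0.08, limma's adjusted p = 2.3e-04), against 0.23 for *Trp53inp1*, which did not pass. The difference between the paralogs was not tested.

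*Ccni*, which encodes cyclin I, a relative of cyclins G1 and G2, fell by 0.48 on the log2 scale on its brightest probe set (adjusted p = 0.0076). *Phlda2* fell by 0.22 (adjusted p = 0.046), with both groups at background. *Btg1*, a close relative of *Btg2*, was at 13.32 ± 0.05 with rTFF2 and 13.18 ± 0.03 with GM-CSF alone (SD, n = 4; adjusted p = 0.16).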
